A study of Mus musculus with 8 samples.

Results

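Expression of 41 genes of mitosis and the G2/M phase was examined in liver tumors and in the adjacent liver of the same mice. The genes were taken from a fixed list of symbols, and a gene entered if the array annotation gave it a probe with a single symbol. That held for 40 of the 41, out of 19938 genes named this way on the array, and Ccnb1 was not analysed here. The samples were 4 tumors described as hepatocellular carcinoma and 4 pieces of adjacent normal liver, dissected from male C57BL/6J mice called M24, M48, M50 and M60. Every mouse, and so every tumor and every adjacent sample, had been injected with an AAV-vector (adeno-associated virus) at 2 to 3 months of age, was kept on a normal diet and was necropsied 18 months later. No mouse without the vector is among the samples, the vector's content is not given in the labels, and each tumor is 1 piece from 1 mouse. Each sample was run on 1 array from biotin-labelled RNA, and the values are the deposited log2 expression values.

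Mitosis is driven by cyclin-dependent kinase 1 with its A and B cyclins. The transcripts of these genes are held down in resting cells by the DREAM complex, in which a pocket protein and E2F4 join the MuvB core, and are switched on in late S and G2 phase when MuvB instead works with B-Myb and FOXM1. Adult hepatocytes are mostly quiescent and polyploid, and their mitotic transcripts are low unless the liver regenerates or a tumor grows. The atypical E2F repressors E2F7 and E2F8 are known in mouse liver for promoting polyploid hepatocytes.

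The mitotic machinery was higher in the tumors. Of the 40 measured genes 33 rose and 1, E2f8, fell, while 6 did not pass the threshold, an adjusted p of 0.05 in limma over all 19938 genes. In the same fit 18.7% of all genes passed, made up of 9.7% that rose and 8.97% that fell. The median difference, tumor minus adjacent, was 1.11 on the log2 scale over the 40 genes and 0.00 over all genes. With every value under a background floor set to that floor, 8 of the 40 rose, 0 fell and the median difference was 0.47, as described with the floor below. In that setting 759 of all 19938 genes rose and 703 fell. With the values as deposited, the rise was at least 2-fold in 24 of the 33 genes, a size reached by 2.91% of all genes. All 4 tumors lay above all 4 adjacent samples in 32 of the 40 genes, which was so for 10.2% of all genes, and 34 of the 40 were higher in the tumor than in its own adjacent tissue in every mouse, against 18.1% of all genes. In a bulk sample, more dividing cells and more transcript per dividing cell cannot be told apart.

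**Figure D1:**
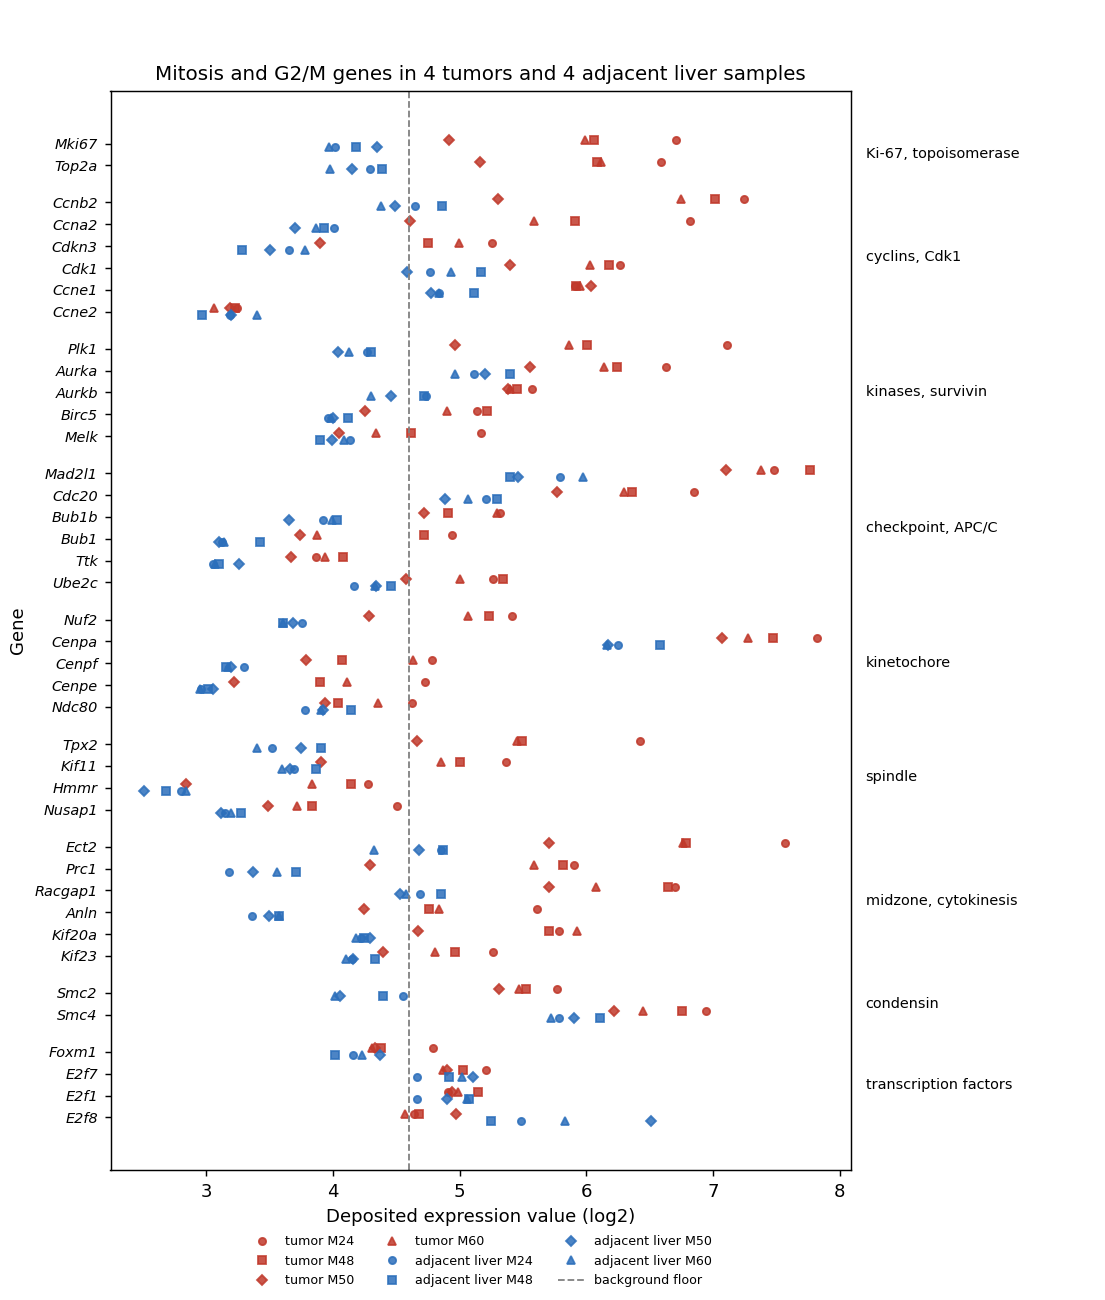
Deposited log2 values (x axis) of the 40 measured genes (y axis, grouped by role) in 4 tumors (red) and 4 adjacent liver samples (blue), with 1 symbol shape per mouse and the background floor of 4.60 as a dashed line. The tumor points lie to the right of the adjacent points in 32 genes, and for E2f8 all 4 lie to the left.

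Many of these genes were near background in adjacent liver. The floor used here is the value below which the lowest 40% of gene means fall, 4.60 on the log2 scale. The adjacent mean lay under it in 28 of the 40 genes, and in 10 of these the tumor mean lay under it too: Ccne2, Foxm1, Melk, Bub1, Ttk, Cenpe, Cenpf, Ndc80, Nusap1 and Hmmr. The 95% point of the 1027 olfactory receptor genes on the array, which liver is not known to use, was lower, at 4.02, and 17 genes had an adjacent mean under it. Of the 28 genes near background in adjacent tissue 24 rose, against 4.12% of all genes with such adjacent means. Of the 12 genes above the floor there 9 rose and 1 fell, against 13.5% of such genes that rose. With values under the floor set to it, the genes that kept their call were Cdk1, Ccne1, Aurkb, Mad2l1, Cdc20, Cenpa, Racgap1 and Smc2. The other 25 rising genes lost it, 3 of them (Ttk, Nusap1 and Hmmr) with every value at the floor. Aurka and Smc4 lost it with no value under the floor and unchanged differences of 0.97 and 0.71 (adjusted p = 0.0923 and 0.0981). The adjusted p was then 0.0521 for Ect2, 0.0673 for Top2a, 0.0687 for Ccnb2, 0.107 for Mki67, 0.134 for Plk1, 0.155 for Prc1, 0.198 for Tpx2 and 0.207 for Ccna2. E2f8, whose difference hardly moved, also lost its call (difference -1.05, adjusted p = 0.0618). In a setting chosen after seeing the data, only genes with a value above the floor were fitted. Of the 36 members fitted there 18 rose and E2f8 fell, while over all genes fitted 1728 rose and 1706 fell. Ccna2 (adjusted p = 0.0629), Tpx2 (0.0598) and Nuf2 (0.0529) were among the 12 fitted members that lost the call. The calls given below are those of the values as deposited.

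Promoter sequences were looked at because MuvB is known to bind a short element, the cell cycle genes homology region (CHR), next to CCAAT boxes that bind NF-Y. The windows, from RefSeq on GRCm38.p6, run from 250 bases before to 50 after each annotated start. A window was found for 33 of the 40 genes, 35 windows in all. The CHR core TTTGAA, read on either strand, occurred in 25 of the 35 windows (71.4%), against 17.9% of all 32851 windows in the table. Within 50 bases of the start it occurred in 65.7% of the members' windows and 4.94% of all windows. CCAAT, read on either strand, occurred in 74.3% of the members' windows and 37.4% of all windows, and both motifs together in 65.7% and 6.95%. In the members' windows no TTTGAA match overlapped a CCAAT match, while in Ube2c 2 CCAAT matches on opposite strands overlapped. A match of this length is a description of the letters and no evidence of binding.

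The last 160 bases before the annotated start are shown for 5 genes that rose and carry TTTGAA there, for E2f8, which fell and carries it too, and for Ccne1, which rose and has neither motif in its window. Capitals mark TTTGAA or CCAAT on either strand, so that TTCAAA and ATTGG are their reverse complements, and each line is read 5′ to 3′ along the gene's strand.
Cdk1 (chr10:69352913-69353072, minus strand): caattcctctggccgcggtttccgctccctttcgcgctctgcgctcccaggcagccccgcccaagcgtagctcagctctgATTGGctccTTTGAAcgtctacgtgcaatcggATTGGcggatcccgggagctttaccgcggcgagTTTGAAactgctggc
Cdc20 (chr4:118437344-118437503, minus strand): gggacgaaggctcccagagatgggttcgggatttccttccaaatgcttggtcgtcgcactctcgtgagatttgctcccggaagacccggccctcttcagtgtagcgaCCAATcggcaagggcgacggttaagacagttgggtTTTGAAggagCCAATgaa
Ube2c (chr2:164769769-164769928, plus strand): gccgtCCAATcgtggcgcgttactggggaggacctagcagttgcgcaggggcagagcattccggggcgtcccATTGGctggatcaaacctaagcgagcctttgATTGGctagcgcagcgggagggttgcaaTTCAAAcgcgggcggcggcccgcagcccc
Kif11 (chr19:37376222-37376381, plus strand): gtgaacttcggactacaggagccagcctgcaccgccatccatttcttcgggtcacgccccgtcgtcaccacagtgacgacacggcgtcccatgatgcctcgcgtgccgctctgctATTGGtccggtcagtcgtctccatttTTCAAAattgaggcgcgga
Top2a (chr11:99024190-99024349, minus strand): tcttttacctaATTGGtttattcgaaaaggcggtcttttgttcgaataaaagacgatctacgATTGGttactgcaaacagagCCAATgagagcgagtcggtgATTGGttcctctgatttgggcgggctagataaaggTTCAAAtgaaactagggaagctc
E2f8 (chr7:48881597-48881756, minus strand): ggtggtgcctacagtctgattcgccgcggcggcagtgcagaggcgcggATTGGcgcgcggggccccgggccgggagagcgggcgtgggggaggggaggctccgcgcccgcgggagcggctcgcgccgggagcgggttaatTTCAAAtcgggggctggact
Ccne1 (chr7:38107491-38107650, minus strand): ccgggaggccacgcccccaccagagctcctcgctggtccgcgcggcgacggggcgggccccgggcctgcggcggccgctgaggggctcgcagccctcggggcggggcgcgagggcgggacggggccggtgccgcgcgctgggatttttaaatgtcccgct

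**Figure D2:**
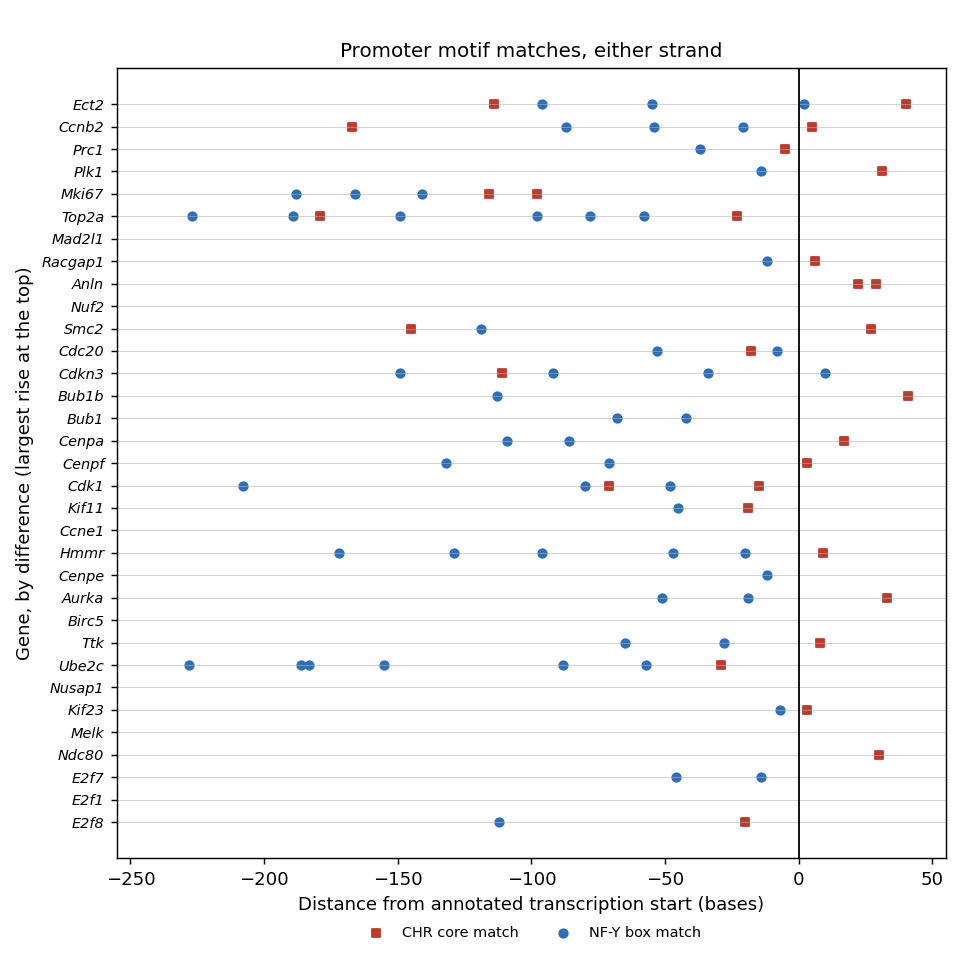
Positions of CHR core matches (red squares) and NF-Y box matches (blue circles) on either strand, as the distance of the first base from the annotated start (x axis, bases), for the first window of each of the 33 genes with a window (y axis, largest rise at the top). Red squares gather near the start, and in 11 genes they all lie after it; Ccne1, Mad2l1, Nuf2, Birc5, Nusap1, Melk and E2f1 have no match.

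Both motifs occurred among the genes that rose, in the gene that fell and among those that did not pass. Among the 28 rising genes with a window 21 had TTTGAA, and 5 had neither motif, among them the cyclin gene Ccne1, the checkpoint gene Mad2l1 and the kinetochore gene Nuf2. E2f8 held both motifs, 1 of each in the stretch shown. Of the 4 genes with a window that did not pass the threshold, Ndc80 held TTTGAA, E2f7 held CCAAT, and Melk and E2f1 held neither.

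Proliferation markers were clearly apart between the tissues. Below, values are given in the order M24, M48, M50 and M60 unless a mouse is named. Mki67, which encodes the Ki-67 protein that coats mitotic chromosomes, had log2 values of 6.71, 6.06, 4.92 and 5.99 in tumors, against 4.02, 4.18, 4.35 and 3.97 in adjacent liver. It rose by 1.79 (SE 0.299, adjusted p = 0.00697). Every tumor lay above every adjacent sample, and the tumor of M50 was the lowest tumor by more than 1 log2 unit. Top2a, the topoisomerase that untangles sister chromatids, stood at 6.59, 6.08, 5.16 and 6.12 in tumors and at 4.30, 4.39, 4.15 and 3.97 in adjacent liver, a rise of 1.78 (SE 0.205, adjusted p = 0.00173). A dimmer Top2a probe, with means of 2.38 in tumors and 2.53 in adjacent liver, stayed under the floor in both tissues and did not show that rise.

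Cdk1, its partners Ccnb2 and Ccna2, and Cdkn3 all rose. Ccnb2, a B-type cyclin that partners Cdk1, had 7.24, 7.02, 5.30 and 6.74 in tumors, against 4.65, 4.86, 4.49 and 4.38 in adjacent liver, and rose by 1.98 (SE 0.273, adjusted p = 0.00341). Ccna2, the cyclin of S phase and G2, had 6.82, 5.91, 4.60 and 5.59 in tumors and 4.01, 3.93, 3.70 and 3.86 in adjacent liver, with a rise of 1.85 (SE 0.268, adjusted p = 0.00402). In both genes the tumors ran from clearly raised in M24 to a small margin over the adjacent samples in M50, without overlap. Cdk1 itself had 6.26, 6.18, 5.39 and 6.03 in tumors, against 4.76, 5.17, 4.58 and 4.94 in adjacent liver, and rose by 1.10 (SE 0.127, adjusted p = 0.00173). Cdkn3, a phosphatase that acts on Cdk1 and Cdk2, spanned 3.90 to 5.26 in tumors and 3.29 to 3.78 in adjacent liver and rose by 1.17 (SE 0.19, adjusted p = 0.00626).

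Of the 2 E-type cyclins, which act at the entry to S phase, 1 rose. Ccne1 had 5.91, 5.92, 6.04 and 5.95 in tumors and 4.84, 5.11, 4.77 and 4.84 in adjacent liver, a rise of 1.06 (SE 0.106, adjusted p = 0.00103). Its 4 tumors lay within 0.13 log2 units of each other, the narrowest range of the 40 genes, and M50 was here the highest. Ccne2 had 3.24, 3.23, 3.19 and 3.06 in tumors, against 3.19, 2.97, 3.20 and 3.40 in adjacent liver. These values overlapped and all lay under the floor, so whether Ccne2 differed was not detectable (difference -0.01, adjusted p = 0.963).

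Among the mitotic kinases Plk1 had the largest difference. Plk1, which drives centrosome maturation and mitotic exit, had 7.11, 6.00, 4.97 and 5.86 in tumors, against 4.27, 4.30, 4.04 and 4.12 in adjacent liver, and rose by 1.80 (SE 0.269, adjusted p = 0.00454). Aurka, the kinase of the spindle poles, had 6.62, 6.24, 5.55 and 6.14 in tumors and 5.12, 5.40, 5.20 and 4.97 in adjacent liver and rose by 0.97 (SE 0.181, adjusted p = 0.0107), a call that was lost without M60 (adjusted p = 0.0521). Aurkb, the kinase of the chromosomal passenger complex, had 5.57, 5.46, 5.38 and 5.40 in tumors, against 4.73, 4.72, 4.46 and 4.30 in adjacent liver, and rose by 0.90 (SE 0.0975, adjusted p = 0.0014). The 4 tumors were nearly level in Aurkb, whereas in Plk1 they spread over 2.15 log2 units. Birc5, which encodes survivin, a partner of Aurkb in that complex, spanned 4.26 to 5.21 in tumors and 3.96 to 4.12 in adjacent liver and rose by 0.86 (SE 0.156, adjusted p = 0.00979). Melk, a kinase of proliferating and progenitor cells, had 5.17, 4.61, 4.05 and 4.34 in tumors and 4.13, 3.90, 4.00 and 4.09 in adjacent liver, and the tumor of M50 lay among the adjacent samples. Its difference of 0.51 did not pass (adjusted p = 0.0743).

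All 6 genes of the spindle checkpoint and of anaphase ubiquitination rose. Mad2l1, which encodes the checkpoint protein MAD2, had 7.48, 7.76, 7.10 and 7.37 in tumors, against 5.79, 5.40, 5.46 and 5.98 in adjacent liver, and rose by 1.77 (SE 0.159, adjusted p = 0.000678). The gap between the lowest tumor and the highest adjacent sample was over 1 log2 unit, and the adjacent values already lay above the floor. Bub1b, which encodes BubR1, had 5.32, 4.91, 4.72 and 5.30 in tumors and 3.92, 4.03, 3.66 and 3.99 in adjacent liver, a rise of 1.16 (SE 0.11, adjusted p = 0.000854). The checkpoint kinases Bub1 and Ttk rose by 1.12 (adjusted p = 0.00738) and 0.77 (adjusted p = 0.00296), with both tissues' means under the floor. Bub1 spanned 3.74 to 4.94 in tumors and 3.10 to 3.43 in adjacent liver, and Ttk 3.67 to 4.08 in tumors and 3.05 to 3.26 in adjacent liver. Cdc20, the activator of the anaphase-promoting complex (APC/C), had 6.85, 6.36, 5.77 and 6.30 in tumors, against 5.21, 5.29, 4.88 and 5.07 in adjacent liver, and rose by 1.21 (SE 0.135, adjusted p = 0.00159). Ube2c, the ubiquitin-conjugating enzyme of that complex, spanned 4.57 to 5.34 in tumors and 4.17 to 4.46 in adjacent liver, without overlap. It rose by 0.72 (SE 0.144, adjusted p = 0.0138), and its adjusted p was 0.0577 without M24 and 0.0514 without M60.

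At the centromere and kinetochore 4 of 5 genes rose. Cenpa, the histone variant that marks centromeres, had 7.82, 7.47, 7.07 and 7.28 in tumors and 6.25, 6.58, 6.17 and 6.17 in adjacent liver, and rose by 1.12 (SE 0.133, adjusted p = 0.00201), with every value above the floor. Nuf2, a subunit of the NDC80 complex that holds microtubules, had 5.41, 5.23, 4.28 and 5.07 in tumors, against 3.75, 3.61, 3.69 and 3.61 in adjacent liver, and rose by 1.33 (SE 0.179, adjusted p = 0.00313). Its partner Ndc80 had 4.62, 4.04, 3.94 and 4.36 in tumors and 3.78, 4.14, 3.92 and 3.91 in adjacent liver, values that overlapped and lay mostly under the floor (difference 0.30, adjusted p = 0.258). Cenpf, a large kinetochore and nuclear matrix protein, rose by 1.11 (adjusted p = 0.00367), and the kinetochore motor Cenpe by 0.99 (adjusted p = 0.0214), with the means of both tissues under the floor. Cenpf spanned 3.78 to 4.79 in tumors and 3.16 to 3.30 in adjacent liver, and Cenpe 3.22 to 4.72 in tumors and 2.95 to 3.05 in adjacent liver, in both cases without overlap. The Cenpe call was lost without M24 (adjusted p = 0.061) and without M60 (0.0856).

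All 4 spindle assembly genes rose. Tpx2, which activates Aurora A on microtubules, had 6.42, 5.49, 4.67 and 5.46 in tumors, against 3.52, 3.91, 3.75 and 3.40 in adjacent liver, a rise of 1.86 (SE 0.282, adjusted p = 0.00488). The tumor of M24 stood well above those of M48 and M60, and that of M50 was nearest to the adjacent values. Kif11, the motor that pushes spindle poles apart, had 5.36, 5.01, 3.91 and 4.85 in tumors and 3.70, 3.87, 3.66 and 3.60 in adjacent liver, and rose by 1.08 (SE 0.207, adjusted p = 0.0121). Its adjusted p was 0.0556 without M60. The microtubule-binding genes Hmmr and Nusap1 rose by 1.06 (adjusted p = 0.00792) and 0.70 (adjusted p = 0.021). All values of both genes lay under the floor, and Nusap1 spanned 3.49 to 4.51 in tumors and 3.11 to 3.27 in adjacent liver. Hmmr was the only gene that rose with its groups overlapping, at 4.27, 4.14, 2.84 and 3.83 in tumors and 2.80, 2.68, 2.51 and 2.84 in adjacent liver, and the Nusap1 call was lost without M60 (adjusted p = 0.0544).

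Genes of the spindle midzone and cytokinesis had the largest median difference of the role groups with more than 2 genes, 1.49 over 6 genes, and all 6 rose. Ect2, the exchange factor that drives furrow ingression in cytokinesis, had 7.57, 6.79, 5.70 and 6.76 in tumors, against 4.85, 4.87, 4.68 and 4.33 in adjacent liver, and rose by 2.02 (SE 0.256, adjusted p = 0.00249), the largest difference of the 40 genes. Racgap1, which together with Kif23 forms centralspindlin and recruits Ect2, had 6.70, 6.64, 5.71 and 6.07 in tumors and 4.68, 4.86, 4.53 and 4.58 in adjacent liver, a rise of 1.62 (SE 0.145, adjusted p = 0.000678). Prc1, which bundles the midzone microtubules, had 5.91, 5.81, 4.29 and 5.59 in tumors, against 3.18, 3.71, 3.37 and 3.56 in adjacent liver, and rose by 1.94 (SE 0.255, adjusted p = 0.00284). These 3 genes were separate between the tissues in all samples, and Prc1 in M50 had a tumor value still under the floor. Anln, the furrow scaffold anillin, rose by 1.36 (adjusted p = 0.00605) and the midzone motor Kif20a by 1.29 (adjusted p = 0.0073). Anln spanned 4.25 to 5.61 in tumors and 3.36 to 3.58 in adjacent liver, and Kif20a 4.67 to 5.93 in tumors and 4.18 to 4.30 in adjacent liver. Kif23 spanned 4.40 to 5.26 in tumors and 4.10 to 4.33 in adjacent liver and rose by 0.67 (adjusted p = 0.0162), but missed the threshold when M24 (adjusted p = 0.0528) or M60 (0.0651) was left out.

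Both condensin ATPase subunits, which compact mitotic chromosomes, rose. Smc2 had 5.77, 5.53, 5.31 and 5.47 in tumors, against 4.55, 4.39, 4.06 and 4.02 in adjacent liver, and rose by 1.26 (SE 0.0939, adjusted p = 0.000371), the smallest adjusted p of the 40 genes. Smc4 had 6.94, 6.75, 6.22 and 6.45 in tumors and 5.78, 6.11, 5.90 and 5.72 in adjacent liver and rose by 0.71 (SE 0.141, adjusted p = 0.0136), with an adjusted p of 0.0571 without M60. The tumors of Smc2 were close to each other, at a range of 0.46 log2 units.

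Of the 4 transcription factors of the list 1 fell and 3 did not pass. E2f8, an atypical E2F that represses E2F target genes, had 4.64, 4.68, 4.97 and 4.57 in tumors, against 5.48, 5.25, 6.51 and 5.83 in adjacent liver, lower in every mouse. It fell, with a difference of -1.05 (SE 0.164, adjusted p = 0.00533). All 4 tumors lay below all 4 adjacent samples, as was so for 10.4% of all genes, and the adjacent liver of M50 had the highest value. Its relative E2f7 had 5.21, 5.03, 4.90 and 4.87 in tumors and 4.66, 4.91, 5.11 and 5.02 in adjacent liver, with overlapping groups (difference 0.07, adjusted p = 0.786). E2f1, the activating E2F of S phase entry, had 4.91, 5.15, 4.94 and 4.98 in tumors, against 4.66, 5.07, 4.90 and 5.06 in adjacent liver, again overlapping (difference 0.07, adjusted p = 0.69). Foxm1, the forkhead factor of G2/M transcription, had 4.79, 4.38, 4.33 and 4.31 in tumors and 4.16, 4.02, 4.37 and 4.23 in adjacent liver (difference 0.26, adjusted p = 0.22). The tumors of M24 and, narrowly, M48 lay above all adjacent values, and only that of M24 lay above the floor.

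The tumor of M24 was the highest and that of M50 the lowest for most of these genes. The median value over the 40 genes was 5.49, 5.29, 4.67 and 5.18 in the tumors of M24, M48, M50 and M60, against 4.16, 4.21, 4.10 and 4.05 in the adjacent samples of the same mice. Within a mouse, the median difference was largest in M24, at 1.50, followed by 1.17 in M60, 1.04 in M48 and 0.58 in M50. The tumor of M24 held the highest of the 4 tumor values in 32 of the 40 genes, against 23.0% of all genes, and that of M50 the lowest in 34, against 23.5% of all genes. Even so, 36 of the 40 genes were higher in the M50 tumor than in its own adjacent tissue. The median range across 4 samples was 1.01 log2 units in tumors and 0.37 in adjacent liver for these genes, and 0.30 in both tissues over all genes. With 1 tumor per mouse, differences between the tumors could not be tested. Across the 40 genes the differences of any 2 mice correlated with Pearson's r of 0.67 to 0.91, a description only, since the mice share the same probes and their background.

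**Figure D3:**
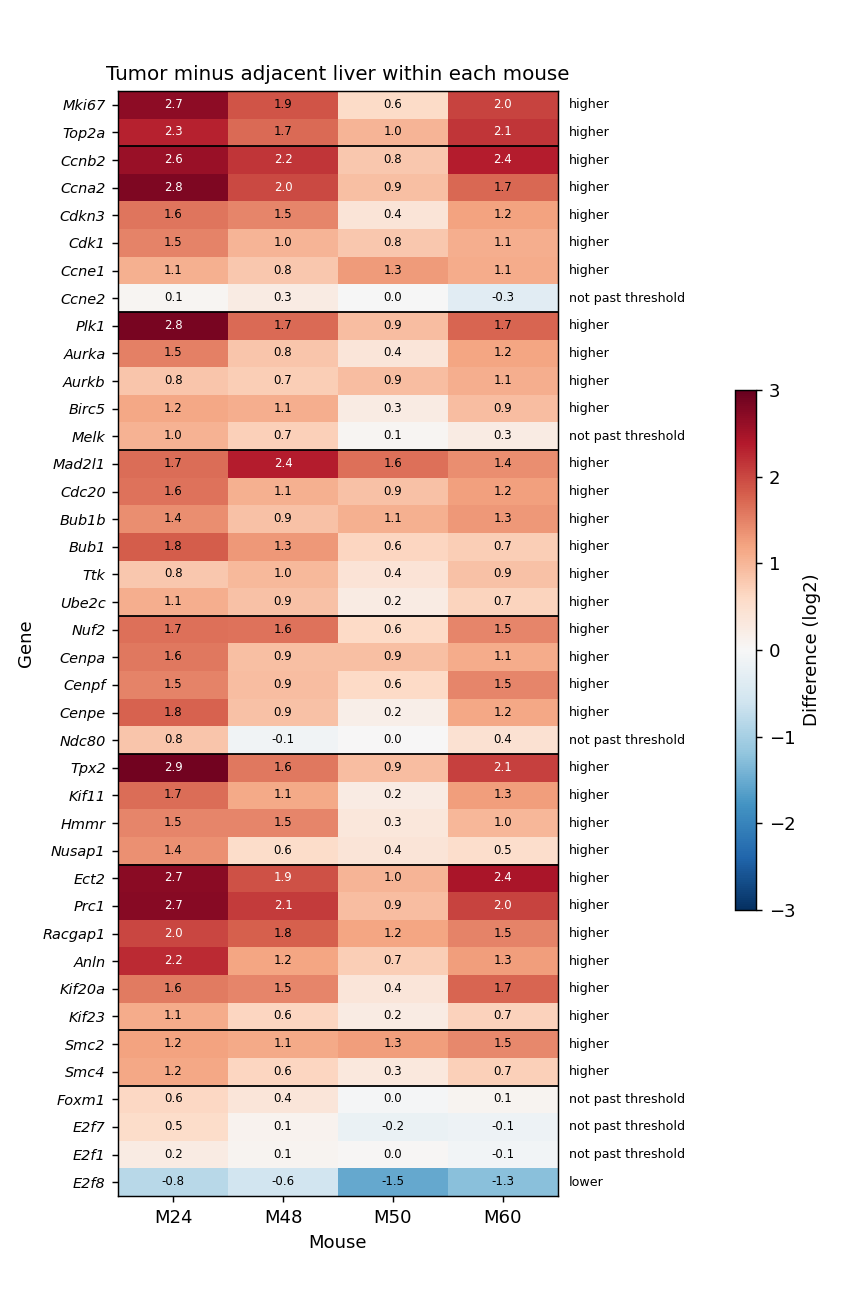
Tumor minus adjacent difference (log2, colour and printed value) for each of the 40 genes (rows, grouped by role) in each mouse (columns), with the call of the fit at the right. The column of M24 holds the largest difference in 32 genes and that of M50 the smallest in 31, while E2f8 is negative in all 4 columns.

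The spread among tumors was not the same for all genes that rose. It was 2.21 log2 units for Ccna2, 2.15 for Plk1, 1.94 for Ccnb2, 1.86 for Ect2 and 1.79 for Mki67. Some genes with rises of about 1 log2 unit or more were nearly even across the tumors, with ranges of 0.13 for Ccne1, 0.19 for Aurkb and 0.46 for Smc2. Mad2l1, with a difference of 1.77, had a range of 0.66 and its highest tumor value in M48. Ccne1 and Mad2l1 have neither promoter motif, whereas Smc2 has both and Aurkb has no promoter window. The other rising genes with neither motif, Nuf2, Nusap1 and Birc5, had wider tumor ranges than Mad2l1. Whether the motifs go with the spread among tumors was not tested.

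**Figure D4:**
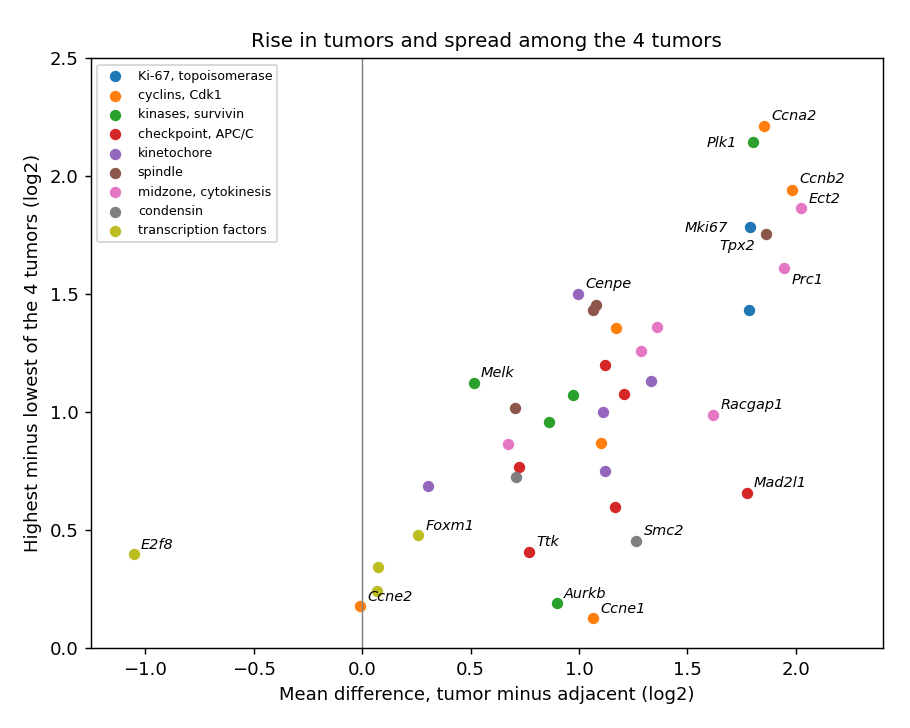
Mean difference, tumor minus adjacent (x axis, log2), against the range of the 4 tumor values (y axis, log2), with 1 point per gene coloured by role. Ccna2, Plk1, Ccnb2 and Ect2 lie at the top right, and Ccne1, Aurkb, Smc2 and Mad2l1 combine a rise with a narrow range.

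Other genes of the mitotic machinery were taken from 5 lists with 124 measured genes. In limma 50 rose and 0 fell, against the 9.7% and 8.97% of all genes given above. At an unadjusted p under 0.05, 64 were higher and 7 lower, against 3003 and 2976 of all 19938 genes. The count of rising genes was 31 without M24, 31 without M60 and 9 with values under the floor set to it, and 57 of the 124 were near background in adjacent liver. Of 31 further spindle and cytokinesis genes 20 rose, with a median of 0.54. The spindle genes Psrc1, Haus8 and Dlgap5 rose by 1.73, 1.34 and 0.94. Of 36 further kinetochore and checkpoint genes 14 rose, with a median of 0.20, among them the AAA ATPase Trip13, which remodels MAD2, at 1.03, the shugoshin Sgo2a at 0.91, Ska2 at 0.72 and Cenpc1 at 0.61.

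Among 22 genes of the G2/M switch 8 rose, against 9.7% of all genes, with a median of 0.37. They included Cks1b, the small subunit that binds cyclin-dependent kinases, at 1.12 (SE 0.118, adjusted p = 0.00128), and Chek2, Plk2 and Plk4 at 0.55, 0.49 and 0.40. Without M60 Chek2 (adjusted p = 0.0599) and Plk4 (0.0563) missed the threshold, as did Plk2 without M24 (0.068), without M50 (0.0688) and without the mouse block (0.0734). In condensin, cohesin and separase 6 of 18 rose, with a median of 0.08. The condensin subunits Ncapg2, Ncapg and Ncapd2 rose by 1.10, 1.01 and 0.53, and the cohesin subunit Stag1 by 0.44, a call lost without M60 (adjusted p = 0.0677). Of 17 genes of the APC/C and its partners 2 rose, again against 9.7% of all genes. They were Anapc4 at 1.04 (SE 0.118, adjusted p = 0.00166) and Cdc16 at 0.34. The Cdc16 call was lost whichever mouse was left out (adjusted p from 0.0797 to 0.15), under median centring (0.103) and under quantile normalization (0.0674). The subunits Anapc2 and Anapc13 stood at 0.31 and -0.25 and did not pass (adjusted p = 0.076 and 0.0955), although Anapc2 did once low genes were left out (0.0493).

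The regulators upstream were mixed. In the list of MuvB, pocket protein and E2F genes 2 of 16 rose and 4 fell, with a median of -0.10. Over all genes 9.7% rose and 8.97% fell. Rbl1, which encodes the pocket protein p107, had 6.62, 6.89, 6.54 and 6.49 in tumors, against 5.47, 5.61, 5.19 and 5.25 in adjacent liver, and rose by 1.25 (SE 0.0904, adjusted p = 0.000325). Rbl2, which encodes p130, the pocket protein typical of quiescent cells, had 7.40, 7.41, 7.17 and 7.58 in tumors and 8.07, 8.08, 8.33 and 8.35 in adjacent liver, with a difference of -0.82 (SE 0.11, adjusted p = 0.00318). The activating factor E2f3 rose by 0.86 (adjusted p = 0.00261), and Tfdp2, a dimerization partner of E2Fs, fell, with a difference of -0.71 (adjusted p = 0.00613). Rbbp4 and Lin52 also fell, with differences of -0.64 and -0.37 (adjusted p = 0.0173 and 0.0424). Mybl2, which encodes B-Myb, and E2f4 stood at 0.04 and -0.02 and did not pass (adjusted p = 0.909 and 0.921). Lin9, Lin37 and Lin54 did not pass either.

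**Figure D5:**
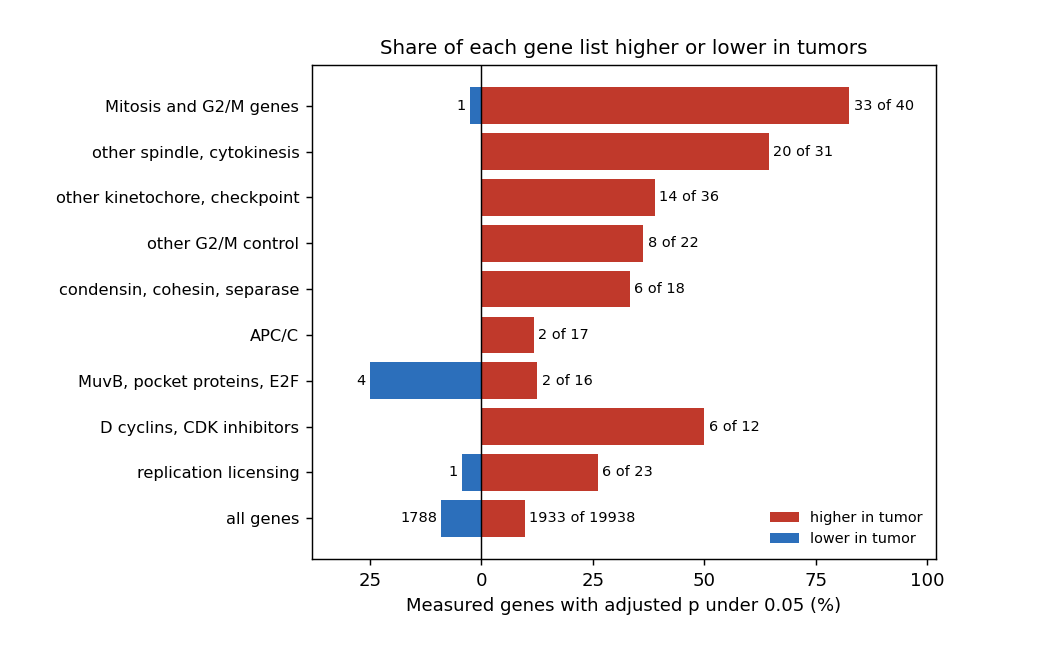
Share of measured genes (x axis, percent) that were higher (red, to the right) or lower (blue, to the left) in tumors at an adjusted p under 0.05, for each list (y axis), with counts beside the bars. The mitosis and G2/M genes are at the top with 33 of 40 higher, and all genes at the bottom with 1933 of 19938.

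Earlier steps of the cell cycle were set beside these. Of all genes 9.7% rose and 8.97% fell in limma. At an unadjusted p under 0.05, 3003 of 19938 genes were higher and 2976 lower. Of 23 genes of replication licensing 6 rose and 1, Mcm10, fell (difference -0.88), with a median of 0.10. The MCM helicase genes Mcm6, Mcm2, Mcm3, Mcm4 and Mcm5 rose by 1.73, 1.12, 0.94, 0.63 and 0.46. The helicase gene Mcm7 stood at -0.21 and did not pass (adjusted p = 0.247). Among those 23 genes the M24 tumor was the highest in 4 and the M50 tumor the lowest in 8. Of 12 D cyclins, partner kinases and inhibitors 6 rose and 0 fell in limma, with 7 higher and 1 lower at an unadjusted p under 0.05 and a median of 0.53, among them cyclin D1 (Ccnd1) at 2.86, followed by the inhibitor Cdkn2b at 2.51, the kinase Cdk6 at 1.01 and Cdkn2a at 0.97. The Cdkn2a call was lost without M24 (adjusted p = 0.105) and without M60 (0.0791). There the M24 tumor was the highest in 2 genes and the M50 tumor the lowest in 4. Whether these lists differ from the mitotic genes in their order of tumors was not tested.

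Markers of the cell types that a piece of liver can hold were measured in the same samples. Their counts stand against 9.7% of all genes that rose and 8.97% that fell. The 8 measured hepatocyte markers were high throughout, with sample means of 12.75 to 13.01 in tumors and 13.04 to 13.14 in adjacent liver, and 1 rose and 2 fell, with Cps1, the first enzyme of the urea cycle, at -0.84. The M50 tumor, the lowest in mitotic genes, was also the lowest of the 4 tumors in all 8. Endothelial markers rose in 4 of 10 genes, with the smallest p for Tie1 at 0.81, with means of 7.69 to 8.10 in tumors and 7.09 to 7.36 in adjacent liver. Stellate cell and fibroblast markers rose in 4 of 11 and fell in 1, with the smallest p for the collagen Col3a1 at 1.94, with means of 7.64 to 7.94 and 6.62 to 7.53 in tumors and adjacent liver. The highest of the tumor means of both lists was in M50. Cholangiocyte markers rose in 2 of 5, with the smallest p for Sox9 at 1.36, with means of 5.07 to 6.08 in tumors and 4.82 to 4.99 in adjacent liver, the lowest tumor mean being in M50. The stellate cell marker Hhip and the cholangiocyte marker Cftr were under the floor in all 8 samples.

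The mean level of lymphocyte markers was highest in the tumor of M60. The counts below again stand against 9.7% of all genes that rose and 8.97% that fell. At an unadjusted p under 0.05, 3003 of all 19938 genes were higher and 2976 lower. Of 11 T and NK cell markers 1 rose, Cd3d at 0.44, a call lost without M24, M50 or M60 (adjusted p from 0.066 to 0.157), without the mouse block (0.164), under median centring (0.0565) and without the variance trend (0.0516). Of the 11 markers, 5 were higher and 0 lower at an unadjusted p under 0.05, with a median difference of 0.44. Their means ran from 4.49 to 5.71 in tumors and from 4.24 to 4.54 in adjacent liver, and Cd4, Ncr1 and Gzma were under the floor in all 8 samples. Of 6 B and plasma cell markers 0 passed in limma and 1 was higher at an unadjusted p under 0.05, with means of 4.36 to 5.83 and 4.21 to 4.58 in tumors and adjacent liver and Cd79a and Ms4a1 under the floor throughout. The immunoglobulin chain gene Jchain had 7.44, 4.90, 5.65 and 9.86 in tumors, against 5.77, 4.35, 4.67 and 4.83 in adjacent liver, highest in M60, and passed the threshold only without M60 (adjusted p = 0.0771 with all mice and 0.029 without). Macrophage markers fell in 4 of 13 and rose in 1 in limma, with a median difference of 0.22. At an unadjusted p under 0.05, 6 of them were higher and 4 lower. The scavenger receptor Cd163, at -1.56, had the smallest p of this list. The means of the list were 7.05 to 8.46 in tumors and 6.75 to 8.60 in adjacent liver. Of 7 neutrophil markers 0 passed in limma, with 1 higher and 1 lower at an unadjusted p under 0.05, means of 3.98 to 4.45 in tumors and 4.01 to 4.75 in adjacent liver, and Ly6g and Cxcr2 under the floor throughout. Cxcr2 stood at 0.25 and passed only without M48 (adjusted p = 0.0477). Of 6 erythroid markers 0 passed in limma, again with 1 higher and 1 lower at an unadjusted p under 0.05, with means of 4.36 to 4.80 in tumors and 4.65 to 4.86 in adjacent liver. Slc4a1, with a difference of 0.33, had the smallest p of these, and Rhag, Epb42 and Gata1 were under the floor throughout. The part of these cell types in the mitotic differences was not tested.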

How the data were processed

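The deposited table holds log2 expression values of 28874 probes for 8 samples, with 0 missing. The log2 scale was read from the range of the values (1.92 to 14.49), and the array medians lay from 4.89 to 5.01. Per the submitters' processing notes the tool was MAS5. The sources used here do not give the background correction, detection calls or hybridisation batches, and batches were not tested. Per the labels, 0.2 ug of total RNA was amplified per sample. The number of arrays limits the precision.

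Gene symbols came from the platform annotation, where 21789 probes had 1 symbol, 1621 several and 5464 none. The probe with the highest mean over 8 arrays stood for a gene. All 19938 genes were fitted with limma 3.58.1 in R 4.3.3 (mouse as a block, variance trend), two-sided, over 4 pairs with 3 residual and 4.16 prior degrees of freedom. No filter on low values was used, because one on the mean of both tissues keeps a low gene only if 1 tissue is high. Benjamini-Hochberg adjustment covered every gene fitted. The mouse pairs the samples because both tissues came from the same animal. Deviations from group means correlated at 0.257, 0.379, 0.0871 and 0.0896 within M24, M48, M50 and M60, against -0.328 to 0.153 between mice.

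The members, lists and tests were chosen with earlier results of these data known. Outside the members, the 4 genes with the smallest p of each pathway list and the 1 of each marker list are named, except 1 that is not reported here. Others, such as Mcm5, Mcm7, Mcm10, Rbbp4, Lin52, Mybl2, E2f4, Lin9, Lin37, Lin54, Cd4, Ms4a1 and further marker genes under the floor, were named after their values were seen. The fit was tested on simulated data. Alternatives covered the filter, the block, scaling, the variance trend, the probe rule, a floor and leaving out each mouse.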

Additional observations from a re-analysis of the deposited data

Results flagged for a closer look

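Among the 164 sets of 4 values looked at, 5 held a sample far from the other 3. Chance alone marks about 1 in 20 such sets, so the 5 are fewer than it would give. Foxm1 in the tumor of M24 was 4.79, with 4.31 to 4.38 in the other tumors. Bub1 in the adjacent liver of M48 was 3.43, with 3.10 to 3.14 in the other adjacent samples. For the shugoshin Sgo2a the adjacent liver of M60 stood out at 3.72, against 3.91 to 3.92. The adjacent liver of M24 had a Trip13 value of 3.96, with 4.41 to 4.46 in the others. The collagen Col3a1 was 9.64 in the tumor of M50, with 8.78 to 8.84 in the other tumors.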

How the results depend on the processing

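The 33 genes that rose and the fall of E2f8 kept their calls with no replicate block, median centring, quantile normalization, no variance trend and the mean of all probes of a gene. Leaving out a mouse gave 26 to 33 rising members, 1 falling member in each case, and a median difference of 0.97 to 1.27. The same step gave 1167 to 1744 genes higher and 902 to 1595 lower over all genes, and 31 to 38 higher and 0 to 2 lower over the other mitosis lists. Leaving out the lowest 40% of genes tested 21 of the 40 members, of which 18 rose and 1 fell (16.3% and 15.7% of the genes that passed), and gave 26 higher and 1 lower in the other lists. A member low in adjacent liver passes that filter only if it is high in tumors. In those lists 1 gene fell under median centring, 1 under quantile normalization and 1 without the variance trend. With values under the floor set to it, 8 members rose and 0 fell, the median difference was 0.47, 9 other-list genes rose, and 759 and 703 genes in all rose and fell. E2f8 then had an adjusted p of 0.0618, and Aurka and Smc4, with no value under the floor, also lost their calls. The cause of the lower counts was not tested. Fitting only genes with a value above the floor, an alternative chosen after seeing the data, gave 18 members higher and 1 lower, and 22 higher and 2 lower in the other lists. Over all genes fitted that way 1728 rose and 1706 fell. With the floor at the 95% point of olfactory receptor genes 17 members were near background in adjacent liver, not 28. Signal over background limits how firmly the members low in adjacent liver can be called.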
